A study of Rattus norvegicus with 4 samples.

Results

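Microglia, the resident macrophages of the brain, and the inflammatory signals they send and receive were described here through 38 genes, in rat cerebellum and prefrontal cortex. The 38 genes were a given list of symbols, picked for what they are known to do and not by a measured cut. They were found through the RefSeq accession that each array probe carries, and each was represented by its brightest probe. All 38 were among the 15437 genes named on the array. They fell by role into 12 microglia receptors and signalling genes, 5 genes of the cytoskeleton, membrane and transcription, 4 complement genes, 3 lysosome genes, 4 pattern recognition genes, 2 border macrophage genes, 5 cytokines and chemokines, and 3 neutrophil and acute phase genes.

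Male rats were ranked by how long they stayed immobile in the forced swimming test, a measure of depressive-like behaviour, and 106 were scored. The groups were depressive cerebellum, control cerebellum, depressive prefrontal cortex and control prefrontal cortex, where depressive rats showed depressive-like behaviour and control rats had average scores. The labels name no allele and no agent for any group, and both states went through the swim and were killed 1 week later, with blood flushed out through the heart. RNA of 4 rats was pooled per group from slices 1 mm thick and hybridised to 1 Agilent array of a single colour, so that 4 arrays on 1 slide held all groups. The pool is the unit. Strain and age, and whether both tissues came from the same rats, are not given in the sources used here. With 1 array per group no difference between states within a tissue has a replicate check.

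Microglia depend on the receptor Csf1r and its ligands, watch their surroundings through receptors such as P2ry12 and Cx3cr1, and clear debris through Trem2, Fc receptors and complement. Their genes are switched on by the transcription factor that Spi1 encodes, which binds purine-rich sites around GGAA. On contact with bacterial products or injury, receptors of the Toll family lead to release of cytokines and chemokines such as Tnf, Il1b and Ccl2. Macrophages of the meninges, choroid plexus and vessel walls share many of these genes, and blood neutrophils carry S100a8 and S100a9.

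Levels are given as scaled signal, the background-subtracted intensity of a gene in percent of the 75th percentile of intensities on its array. A difference is the difference of log2 scaled signals. For a comparison of single arrays its SE comes from the spread between spots of equal brightness on these arrays, which is technical. The SE of a fitted difference comes from the fit described below. A gene was called well above background by the flag of the scanner software. All 38 genes were well above background on at least 1 array and 35 on all 4. Mrc1 was not well above background on the control prefrontal cortex array, nor Il1b and S100a8 on the depressive cerebellum array. That array had an additive error, the software's estimate of background noise, of 6.99, against 4.02 to 4.20 on the others, and 73.1% of its probes were well above background, against 76.1% to 78.2%.

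The scanner files linked to the depressive cerebellum and the control prefrontal cortex samples were exchanged relative to the deposited value table, and the table was followed. Each sample's column of the table correlated with 1 scanner file at r of 0.99994 or more, while the depressive cerebellum and control prefrontal cortex columns correlated with their own linked file at r of 0.933. Taken as linked, 21 of the 38 genes would differ by 2-fold or more between states in cerebellum and 14 in prefrontal cortex, and 0 between tissues in depressive or in control rats. The summed scaled signal of 8 cerebellum neuron markers, in multiples of the 75th percentile, was 182 and 194 on the depressive and control cerebellum arrays, against 12.998 and 13.496 on the depressive and control prefrontal cortex arrays as read here. The sum of 8 cerebral cortex neuron markers was 6.04 and 6.62 in cerebellum, against 192 and 212 in prefrontal cortex, in the same order of states. These markers tell tissues apart and not states.

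Promoters of 5 of the genes are shown because they carry the letters of Spi1-type sites just upstream of genes that differed in opposite ways between the tissues. Of the 38 genes, 24 had an entry in the RefSeq promoter table of build GRCr8, which gives 250 bases before and 50 after the start of a gene. Ctss (chr2:185775146-185775445, plus strand) encodes a lysosomal protease, Cd53 (chr2:197087847-197088146, minus strand) a membrane tetraspanin and Trem2 (chr9:20151730-20152029, minus strand) a lipid receptor, and these were lower in cerebellum. Cd14 (chr18:28611109-28611408, minus strand) and Tlr4 (chr5:85160997-85161296, plus strand) encode parts of the endotoxin receptor and were higher in cerebellum. Capitals mark GAGGAAG or AGGAAGT on either strand.
Ctss: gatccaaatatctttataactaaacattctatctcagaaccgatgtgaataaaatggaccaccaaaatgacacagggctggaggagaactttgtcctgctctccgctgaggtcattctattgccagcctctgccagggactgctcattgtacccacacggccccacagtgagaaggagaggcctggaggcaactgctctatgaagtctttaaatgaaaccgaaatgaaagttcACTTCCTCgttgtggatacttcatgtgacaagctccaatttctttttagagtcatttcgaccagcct
Cd53: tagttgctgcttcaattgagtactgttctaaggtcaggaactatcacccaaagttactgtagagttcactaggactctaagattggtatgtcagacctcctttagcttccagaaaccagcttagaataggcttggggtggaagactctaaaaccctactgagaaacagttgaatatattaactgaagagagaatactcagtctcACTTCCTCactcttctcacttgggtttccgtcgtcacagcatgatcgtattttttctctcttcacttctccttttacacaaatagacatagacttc
Trem2: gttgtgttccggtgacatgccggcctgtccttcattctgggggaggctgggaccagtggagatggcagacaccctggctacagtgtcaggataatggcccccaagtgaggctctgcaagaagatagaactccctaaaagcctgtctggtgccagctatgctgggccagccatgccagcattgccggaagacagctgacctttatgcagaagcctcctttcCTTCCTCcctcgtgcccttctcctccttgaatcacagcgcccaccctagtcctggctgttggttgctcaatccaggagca
Cd14: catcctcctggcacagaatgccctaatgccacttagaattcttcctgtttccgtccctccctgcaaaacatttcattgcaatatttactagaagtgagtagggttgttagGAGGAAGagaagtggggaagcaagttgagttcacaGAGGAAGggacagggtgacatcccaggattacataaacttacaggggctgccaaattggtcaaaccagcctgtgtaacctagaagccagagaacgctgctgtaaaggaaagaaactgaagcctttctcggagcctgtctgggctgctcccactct
Tlr4: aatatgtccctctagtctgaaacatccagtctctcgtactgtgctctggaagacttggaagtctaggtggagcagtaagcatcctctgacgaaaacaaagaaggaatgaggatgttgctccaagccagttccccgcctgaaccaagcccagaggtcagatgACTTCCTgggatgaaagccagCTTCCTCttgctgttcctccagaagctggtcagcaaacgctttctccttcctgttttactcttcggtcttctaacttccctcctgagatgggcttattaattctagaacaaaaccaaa
The marked letters began 17 bases before the start in Ctss, 46 in Cd53 and 30 in Trem2, and lay 140 and 105 bases before it in Cd14 and 89 and 68 in Tlr4. In Ctss and Cd53 both forms overlap in 1 run. So the same letters stood before genes that were lower and genes that were higher in cerebellum.

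Over the 24 promoters, GAGGAAG was found in 13 (54.2%) and in 12.4% of all 27457 promoters of the table. AGGAAGT was found in 10 (41.7%) and in 8.23% of all, and at least 1 of both forms in 17 (70.8%) and in 17.5% of all. Their overlap GAGGAAGT was in 3 (12.5%) and 2.44%. In all, 14 motifs were searched on both strands, and these forms and the 5 promoters were put forward after the matches had been seen. TTNCNNAA, a loose form for C/EBP factors, was in 66.7% of the 24 and 40.8% of all promoters, the TATA box letters TATAAA in 20.8% and 14.3%, and the GC box GGGCGG in 25% and 34.9%. For AP-1, TGACTCA was in 4.17% and 4.53% and TGANTCA in 12.5% and 7.33%. 3 forms of the NF-kB site, the CRE TGACGTCA, the E-box CACGTG and the C/EBP palindrome TTGCGCAA were in 0 of the 24 windows, and in 0.371%, 0.0947%, 0.0801%, 1.91%, 6.65% and 0.197% of all. A match is a description of letters and not a bound site.

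Most microglia genes were lower in cerebellum than in prefrontal cortex, in depressive and in control rats alike. The difference, cerebellum minus prefrontal cortex, was below 0 in both states for 30 of the 38 genes, above 0 in both for C3, Cd14, Tlr4, Mrc1, Il18 and Ccl2, and of opposite sign for Cd163 and Lcn2. The median of the 38 differences was -0.85 in depressive and -0.98 in control rats, beside -0.06 and -0.01 over all genes. Differences were above 0 for 7 of 38 genes in either state, where 46% of all genes were in depressive and 49.2% in control rats. At 2-fold or more stood 14 of 38 in depressive rats, 11 of them lower, where 23.7% of all genes were at 2-fold or more and 14.5% lower by that much. In control rats 21 of 38 did, 18 of them lower, beside 24% and 14.2% of all genes. In bulk tissue, fewer cells of a type and less RNA per cell cannot be told apart.

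A limma fit of tissue over both states, with state as a block and 11618 genes tested, called 30 of the 35 genes measured on all arrays at an adjusted p under 0.05. Of these, 26 were lower in cerebellum and 4, Ccl2, Cd14, Tlr4 and C3, were higher. The fit called 72.8% of all tested genes, 38% lower and 34.7% higher, so a call by itself sets a gene little apart, and the direction and size carry the description. It has 1 residual degree of freedom, the change of the tissue difference between states, moderated by the spread over all genes. Its p-values hold no spread between replicate pools. In the tissue results, also for genes outside the 38, ± gives the SE of this fit unless an SE between spots is named. For dim genes it can lie far below the SE between spots. For Tlr4 it was 0.05, against 0.24 in depressive and 0.21 in control rats between spots, and for Tnf 0.05, against 0.23 and 0.14. Its median difference was -0.90 over the 35 genes and -0.02 over all genes. Itgam, Il18, Cd68, Lcn2 and Cd163 were not called.

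**Figure D1:**
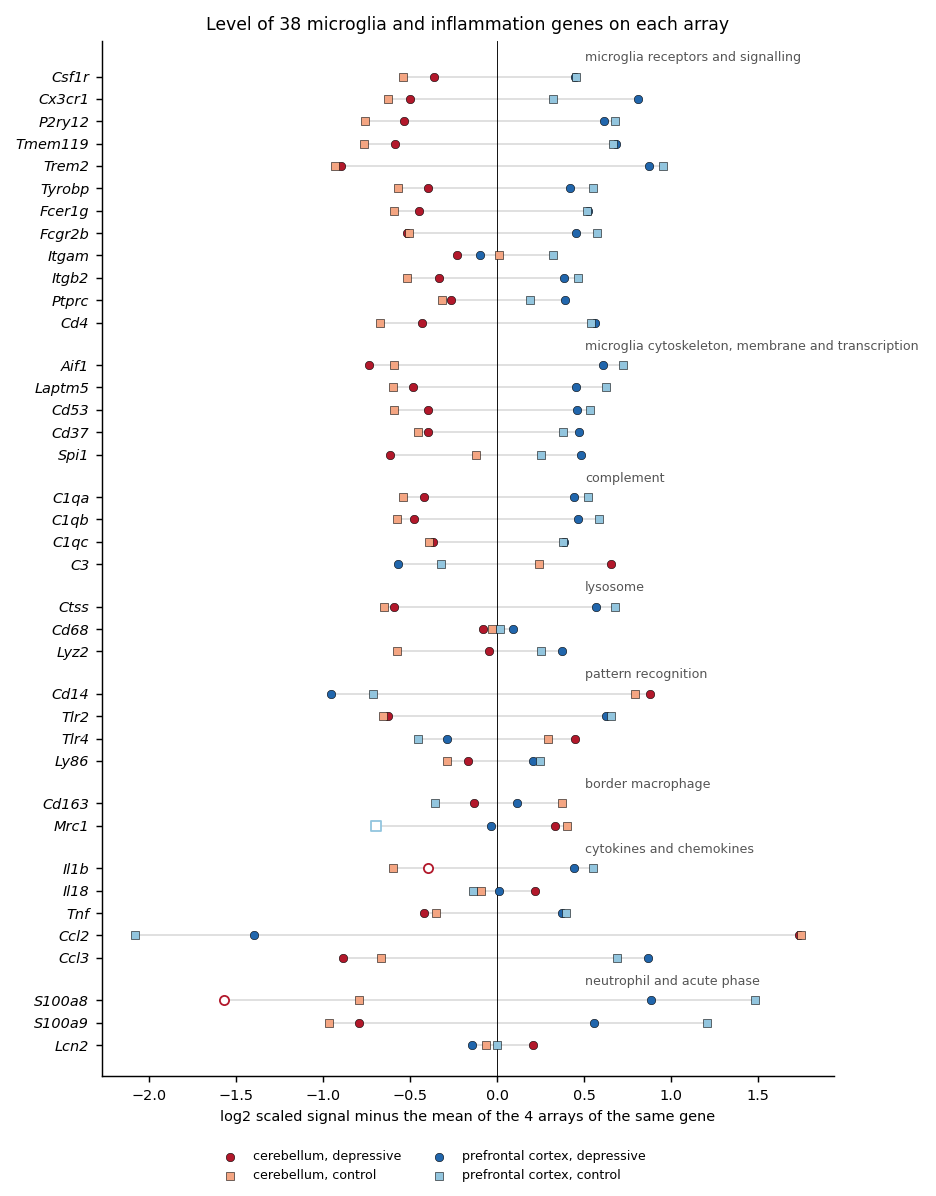
The log2 scaled signal of each of the 38 genes on the 4 arrays, minus the mean of the 4 arrays of that gene, by role. Circles are depressive and squares control pools, red shades cerebellum and blue shades prefrontal cortex, and open symbols are not well above background. Most microglia genes have the red symbols left of the blue ones, whereas for C3, Cd14, Tlr4 and Ccl2 the red symbols are on the right.

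Among the receptors, all 12 were lower in cerebellum in both states and 11 were called, with Itgam as the exception. Trem2, a lipid receptor that signals through Tyrobp, had a scaled signal of 60.1% and 58.7% in depressive and control cerebellum, against 205% and 216% in depressive and control prefrontal cortex. Its fitted difference was -1.83 ± 0.06 (SE of the fit, adjusted p = 0.000406 by limma), the most negative among the receptors, on a probe with 1 spot. The pair of cerebellum values was far below the pair of prefrontal cortex values.

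P2ry12, the purine receptor by which microglial processes find injured cells, had 49.9% and 42.6% in depressive and control cerebellum and 111% and 116% in depressive and control prefrontal cortex. Its fitted difference was -1.29 ± 0.09 (adjusted p = 0.00169). Tmem119, a membrane protein used to tell microglia from other macrophages, had 26.01% and 22.96% in depressive and control cerebellum, against 62.5% and 61.9% in depressive and control prefrontal cortex, a difference of -1.35 ± 0.07 (adjusted p = 0.000831). Both genes were thus more than 2-fold lower in cerebellum in each state. Cx3cr1, the receptor of the neuronal chemokine fractalkine, had 76.5% and 70.3% in depressive and control cerebellum and 190% and 135% in depressive and control prefrontal cortex. Its tissue difference was -1.31 in depressive and -0.95 in control rats, and the prefrontal cortex arrays were the ones that differed from each other. Csf1r, the receptor that microglia need to survive, had 31.2% and 27.7% in depressive and control cerebellum and 54.9% and 55.0% in depressive and control prefrontal cortex.

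The other receptors had fitted differences between -0.58 for Ptprc, a phosphatase of all leukocytes, and -1.10 for Cd4, which rat macrophages carry as well as T cells. Between them were the adaptors Tyrobp (-0.97) and Fcer1g (-1.04), the Fc receptor Fcgr2b (-1.02) and the integrin chain Itgb2 (-0.85). Cd4 was dim, with an SE between spots of 0.40 in depressive and 0.23 in control rats. Over the alternatives its difference shrank to -0.39 in depressive and -0.55 in control rats. Itgam, the integrin chain that pairs with Itgb2, had 8.42% and 9.95% in depressive and control cerebellum and 9.22% and 12.4% in depressive and control prefrontal cortex. The control cerebellum value lay above the depressive prefrontal cortex value, so the tissues overlapped, and the fitted difference was -0.22 ± 0.07 (adjusted p = 0.0556). Itgam and Itgb2 thus differed in size although their products form 1 receptor.

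The 5 genes of the cytoskeleton, membrane and transcription were all lower in cerebellum and all called. Aif1, the calcium-binding protein known as Iba1 and the usual stain for microglia, had 174% and 192% in depressive and control cerebellum, against 440% and 478% in depressive and control prefrontal cortex. Its difference was -1.33 ± 0.05 (adjusted p = 0.000517), and a second, dimmer probe gave -1.03 in depressive and -1.27 in control rats. Laptm5, a lysosomal membrane protein of leukocytes, had 214% and 198% in depressive and control cerebellum and 410% and 463% in depressive and control prefrontal cortex. The tetraspanins Cd53 and Cd37 had fitted differences of -0.99 ± 0.09 and -0.85 ± 0.05 (SE of the fit). Cd37 was dim, with an SE between spots of 0.46 in depressive and 0.34 in control rats. Over the alternatives its difference shrank to -0.24 in depressive and -0.30 in control rats. Spi1, the transcription factor named above, was dim, with 1.21% and 1.71% in depressive and control cerebellum and 2.59% and 2.21% in depressive and control prefrontal cortex. Its tissue difference was -1.10 in depressive and -0.37 in control rats, and the call (adjusted p = 0.0413) was lost under quantile normalization (0.0531) and median scaling (0.0522).

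The complement genes split. C1qa, C1qb and C1qc, the chains of the starter of the classical pathway and neighbours on chromosome 5, were lower in cerebellum, with differences of -0.96 ± 0.07, -1.05 ± 0.08 and -0.76 ± 0.05. C1qb had 502% and 469% in depressive and control cerebellum, against 963% and 1045% in depressive and control prefrontal cortex. C3, the central component that all pathways cleave, went the other way, with 71.1% and 53.2% in depressive and control cerebellum and 30.5% and 36.1% in depressive and control prefrontal cortex. The cerebellum values of C3 were both above the prefrontal cortex values, by 1.22 in depressive and 0.56 in control rats on the log2 scale (fit 0.89 ± 0.19, adjusted p = 0.0204).

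Of the lysosome genes, Ctss, the protease cathepsin S, had 345% and 331% in depressive and control cerebellum and 770% and 831% in depressive and control prefrontal cortex, a difference of -1.24 ± 0.07 (adjusted p = 0.000976). Lyz2, lysozyme, had 410% and 285% in depressive and control cerebellum and 549% and 504% in depressive and control prefrontal cortex, a difference of -0.62 ± 0.12 (adjusted p = 0.0166). Cd68, a lysosomal membrane protein of macrophages, had 11.3% and 11.7% in depressive and control cerebellum and 12.7% and 12.1% in depressive and control prefrontal cortex. All 4 values of Cd68 were close, and its difference of -0.11 ± 0.06 was not called (adjusted p = 0.182).

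Pattern recognition genes also split. Tlr2, a receptor of bacterial lipoproteins, had 15.5% and 15.2% in depressive and control cerebellum, against 37.1% and 37.8% in depressive and control prefrontal cortex, a difference of -1.28 ± 0.05 (adjusted p = 0.000588). Cd14, which hands endotoxin to Tlr4, had 13.9% and 13.1% in depressive and control cerebellum and 3.90% and 4.61% in depressive and control prefrontal cortex, a difference of 1.67 ± 0.10 (adjusted p = 0.0012). Tlr4, the endotoxin receptor itself, had 3.12% and 2.80% in depressive and control cerebellum and 1.87% and 1.67% in depressive and control prefrontal cortex, a difference of 0.74 ± 0.05 (adjusted p = 0.00143). The endotoxin receptor genes were thus higher and Tlr2 lower in cerebellum, in each state and without overlap. Ly86, a partner of a Toll-like receptor of the same family, was lower in cerebellum, with a difference of -0.46 ± 0.07 (adjusted p = 0.00831).

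Ccl2, a chemokine that attracts monocytes, was the member with the most positive tissue difference. It had 10.60% and 10.69% in depressive and control cerebellum and 1.21% and 0.755% in depressive and control prefrontal cortex. That is 8.75-fold higher in depressive and 14.2-fold higher in control cerebellum (fit 3.48 ± 0.19 on the log2 scale, adjusted p = 0.00104). On the 7 spots usable on all arrays the difference lay between 2.96 and 3.16 in depressive and between 3.69 and 4.09 in control rats. Ccl3, a chemokine that microglia make, went the other way, with 0.728% and 0.848% in depressive and control cerebellum and 2.45% and 2.16% in depressive and control prefrontal cortex (fit -1.55 ± 0.12, adjusted p = 0.00191). The sizes for both chemokines depend on the processing. The normexp alternative, which also adds an offset and quantile normalization, gave 2.09 and 2.31 for Ccl2 in depressive and control rats. Over the alternatives the difference of Ccl3 shrank to -0.56 in depressive and -0.55 in control rats.

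Tnf, the cytokine at the head of many inflammatory responses, had 2.89% and 3.03% in depressive and control cerebellum and 5.01% and 5.09% in depressive and control prefrontal cortex, a difference of -0.77 ± 0.05 (adjusted p = 0.00139). Il1b, a cytokine released after inflammasome activation, had 0.577% in control cerebellum against 1.28% in control prefrontal cortex. It was not well above background in depressive cerebellum, where its signal was 1.79-fold below the 1.19% of depressive prefrontal cortex. Over the alternatives its difference shrank to -0.17 in depressive and -0.28 in control rats. Il18, a cytokine matured by the same enzyme, had 23.1% and 18.7% in depressive and control cerebellum and 20.04% and 18.09% in depressive and control prefrontal cortex. Its tissues overlapped and its difference of 0.13 ± 0.07 was not called (adjusted p = 0.166).

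S100a8 and S100a9, subunits of the calprotectin of neutrophils and neighbours on chromosome 2, were lower in cerebellum. S100a9 had 1.26% and 1.12% in depressive and control cerebellum and 3.23% and 5.06% in depressive and control prefrontal cortex, a difference of -1.76 ± 0.23 (adjusted p = 0.00618). S100a8 had 0.757% in control cerebellum against 3.66% in control prefrontal cortex. In depressive cerebellum it was not well above background, and its signal there was 5.47-fold below the 2.42% of depressive prefrontal cortex. Its 2 spots gave log2 differences of -2.97 and -1.93 in depressive rats. Lcn2, an acute phase protein that binds bacterial iron carriers, had 4.40% and 3.64% in depressive and control cerebellum and 3.45% and 3.81% in depressive and control prefrontal cortex, with overlap, and was not called (adjusted p = 0.354). Normexp moved the tissue difference of S100a8 to -0.77 in depressive and -1.07 in control rats, and that of S100a9 to -0.49 in depressive and -1.11 in control rats.

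The border macrophage genes did not follow the microglia receptors. Cd163, a haemoglobin scavenger receptor, had 2.88% and 4.10% in depressive and control cerebellum and 3.43% and 2.47% in depressive and control prefrontal cortex. Its tissue difference was -0.25 ± 0.23 in depressive and 0.73 ± 0.17 in control rats (SE between spots), and the fit did not call it (adjusted p = 0.465). Mrc1, the mannose receptor, had 0.819% and 0.859% in depressive and control cerebellum and 0.634% in depressive prefrontal cortex. In control prefrontal cortex it was not well above background, and the control cerebellum value was 2.14-fold above its signal there. Its 2 spots gave log2 differences of 1.62 and 0.57 there, and the lowest value over the alternatives was 0.15. Both genes were dim, and Mrc1 was measured with an SE over 0.5 in each comparison.

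**Figure D2:**
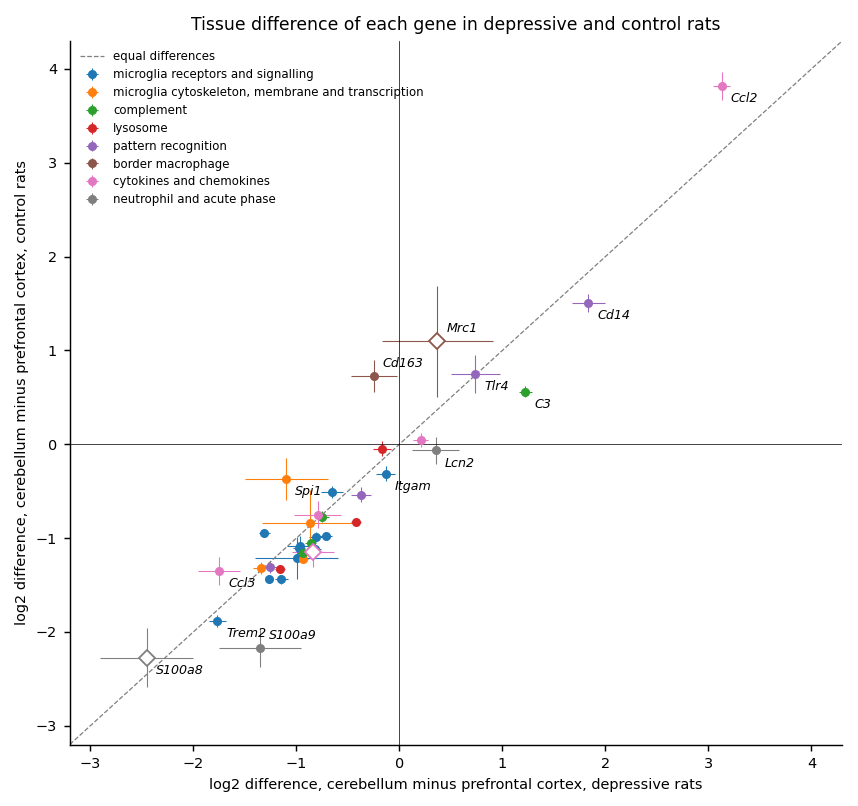
The log2 difference, cerebellum minus prefrontal cortex, of each of the 38 genes in depressive rats (x axis) and control rats (y axis), coloured by role, with bars of 1 SE between spots and open diamonds where a value is a bound. Most genes form a group near -1 on both axes, Ccl2 and Cd14 lie above 1 on both, and Cd163 and Lcn2 have opposite signs.

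The tissue difference in depressive rats correlated with that in control rats at r = 0.94 (Spearman 0.89) over the 35 genes measured everywhere, beside 0.98 over 11618 genes. These points are genes on the same arrays and no test was made. Of the 30 genes lower in both states, 21 had the smaller difference in depressive rats, where 48.5% of all genes lower in both states did. For a gene measured on all arrays, the gap between its tissue differences equals the gap between its state differences. This count and the opposite state differences given below are thus not separate observations. The all-gene median also differed between states, at -0.06 in depressive and -0.01 in control rats.

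Genes outside the 38 that belong to the same cells were read from lists, and in these lists lower and higher between tissues count the limma calls. Of 19 tested further microglia genes, 15 were lower in cerebellum and 3 higher, with a median difference of -0.92. Inpp5d, a lipid phosphatase of immune cells, had 9.48% and 9.23% in depressive and control cerebellum and 70.0% and 63.4% in depressive and control prefrontal cortex (difference -2.83 ± 0.06). Runx1, a transcription factor of blood and microglia, differed by -2.06 ± 0.05 and P2ry13, a purine receptor close to P2ry12, by -1.58 ± 0.05.

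Of 13 tested ligands and regulators of microglia receptors, 8 were lower and 4 higher in cerebellum (median -0.38). Cx3cl1, the fractalkine that binds Cx3cr1, had 287% and 288% in depressive and control cerebellum and 5997% and 6014% in depressive and control prefrontal cortex (difference -4.38 ± 0.05). The ligands of Csf1r differed in opposite ways, with Il34 at 204% and 189% in depressive and control cerebellum and 839% and 874% in depressive and control prefrontal cortex (-2.12 ± 0.07). Csf1 had 36.5% and 36.1% in depressive and control cerebellum and 21.5% and 18.6% in depressive and control prefrontal cortex (0.86 ± 0.07). Csf1, outside the rule for named genes, was added after its values were seen. Fractalkine and Il34 were thus lower in cerebellum, where Cx3cr1 and Csf1r were lower, and Csf1 was higher there.

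Of 12 tested genes that activated microglia raise, 6 were higher and 3 lower in cerebellum (median 0.07). Spp1, osteopontin, which neurons and border cells also make, had 73.5% and 51.3% in depressive and control cerebellum and 0.836% and 0.796% in depressive and control prefrontal cortex (6.23 ± 0.13). Of 13 tested Toll, TNF and interleukin-1 signalling genes, 7 were lower and 3 higher (median -0.39), among them Il6r (-1.82 ± 0.05) and Rela, an NF-kB subunit (0.66 ± 0.05). Il6, Cxcl1, Cxcl2 and Ccr2 were not well above background on any array. Of 5 tested chemokines and receptors, 3 were lower and 2 higher (median -0.35), with Cxcl12 at -0.88 ± 0.06 and Cxcr4 at 0.83 ± 0.05. Of 11 tested other complement genes, 5 were lower and 4 higher (median 0.16), and C1r, a protease of the C1 complex, was higher by 1.84 ± 0.08 and Serping1, its inhibitor, by 1.76 ± 0.09. Like C3, these were higher in cerebellum while the C1q chains were lower.

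**Figure D3:**
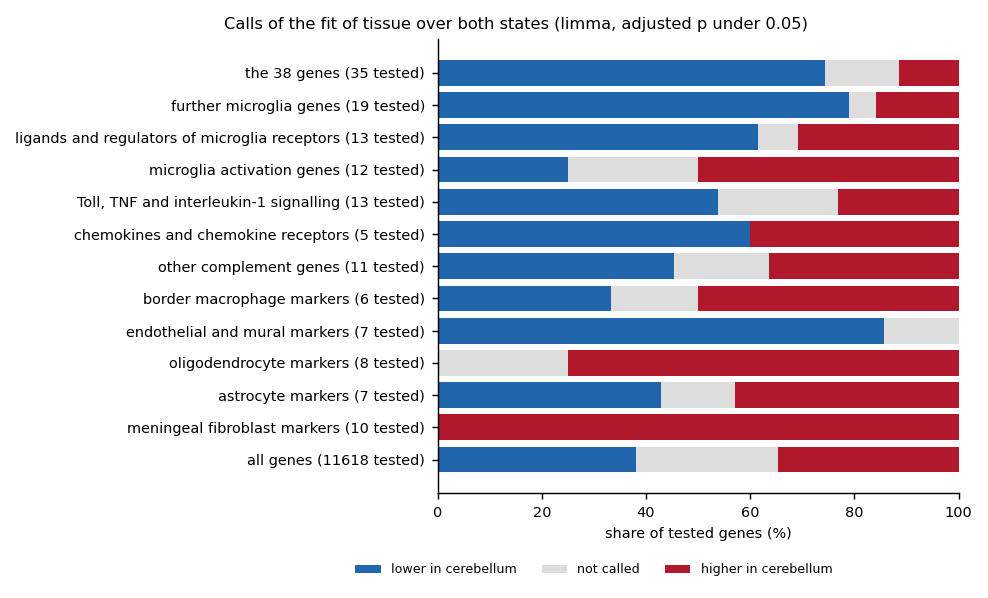
Share of the tested genes of each list that the limma fit of tissue over both states called lower (blue) or higher (red) in cerebellum, or did not call (grey), with all 11618 genes at the bottom. The 38 genes and the further microglia genes are mostly blue, the activation genes and oligodendrocyte markers hold more red, and over all genes 38% are lower and 34.7% higher.

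Markers of other cells also differed between the tissues. All 10 meningeal fibroblast markers were higher in cerebellum (median 1.37), with summed scaled signals of 102 and 94.2 multiples of the 75th percentile in depressive and control cerebellum and 39.7 and 20.2 in depressive and control prefrontal cortex. Of 5 tested choroid plexus markers 5 were higher, with sums of 172 and 176 in depressive and control cerebellum and 2.01 and 8.36 in depressive and control prefrontal cortex. Of 6 tested border macrophage markers 3 were higher and 2 lower (median 0.36), with sums of 1.11 and 1.21 in cerebellum and 0.79 and 0.78 in prefrontal cortex, in the same order of states. Cd209a, a marker of that list, was not well above background on any array. Of 7 tested endothelial and mural markers, 6 were called lower and 0 higher in cerebellum, and of 8 oligodendrocyte markers 6 were called higher. The part of these cells in the differences of Ccl2, Cd14, C3 and Spp1 was not tested.

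Between states, none of the 38 genes differed by 2-fold or more in either tissue. In cerebellum 0 of 37 measured genes did, where 1.12% of all genes did, and in prefrontal cortex 0 of 38, where 0.79% of all genes did. In cerebellum 26 of 37 genes were above 0, depressive minus control, where 39.4% of all genes were, with a median of 0.10 beside -0.03 over all genes. In prefrontal cortex 16 of 38 were above 0, where 47.2% of all genes were, with a median of -0.03 beside -0.01. At 1.5-fold or more stood 1 gene in cerebellum, S100a8, and 4 in prefrontal cortex, Mrc1, Ccl2, S100a8 and S100a9, where 3.85% and 2.73% of all genes did. These counts were 0 and 0 under normexp, 0 in cerebellum under quantile normalization, and 2 in prefrontal cortex in the value table, and 0 and 2 among the 35 genes above background everywhere. No test is possible within a tissue.

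In cerebellum, Lyz2 had the highest difference, 0.53 ± 0.05 (SE between spots), followed by C3 at 0.42 ± 0.05 and Il18 at 0.31 ± 0.07. Both spots of C3 were above 0, at 0.32 and 0.51, and both spots of Lyz2, at 0.47 and 0.59. P2ry12 (0.23 ± 0.06), Tmem119 (0.18 ± 0.03), Tyrobp (0.17 ± 0.05), Itgb2 (0.18 ± 0.07), Cd53 (0.19 ± 0.07) and Csf1r (0.17 ± 0.06) were a little higher in the depressive pool. These are differences of 1.13- to 1.17-fold. Of the 37 measured genes 11 were below 0, among them Aif1 (-0.14 ± 0.07, its second probe 0.18), Fcgr2b (-0.006 ± 0.12) and Cd68 (-0.05 ± 0.09). Trem2 (0.03 ± 0.08) and C1qc (0.02 ± 0.06) were within their SE, as were Fcgr2b and Cd68. The 2 spots of Csf1r gave 0.34, in a patch where 4 of 17 neighbouring spots were 2-fold or more higher on the depressive array, and 0.0067. The second probe of Csf1r gave -0.31, that of Tmem119 0.14, and 2 of the 10 spots of Itgb2 lay in patches where 8 of 22 and 5 of 19 neighbouring spots were 2-fold or more higher on the depressive array.

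The lowest differences in cerebellum were those of S100a8, Cd163 (-0.51 ± 0.21) and Spi1 (-0.49 ± 0.43). S100a8 was 1.71-fold lower in the depressive pool, by a signal there that was not well above background. Its log2 difference was -0.87 to -0.15 over the alternatives, with an SE between spots of 0.53. S100a9, the partner of S100a8, was at 0.17 ± 0.43, so the 2 subunits differed in sign there. Itgam was at -0.24 ± 0.09. Of the 33 genes with several spots and both arrays measured, 21 had every spot above 0, 5 every spot below 0 and 7 spots on both sides. The same count was not made over all genes. Spots of a probe share the pool and the array, so their shared sign is no replicate of a state difference. Il1b gave no fold in cerebellum.

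In prefrontal cortex the order of genes was another. Ccl2 was 1.60-fold higher in the depressive pool (0.68 ± 0.17), with its 7 spots between 0.53 and 0.86, at a dim level of 1.21% against 0.755% of the 75th percentile. Mrc1 was 1.58-fold higher, against a control signal not well above background. That value was carried by 1 of 2 spots, since the spots gave 1.65 and -0.34. Cx3cr1 was at 0.49 ± 0.05, with both spots above 0 (0.41 and 0.56), and Cd163 at 0.47 ± 0.19. S100a9 was 1.57-fold lower (-0.65 ± 0.15) and S100a8 1.51-fold lower (-0.60 ± 0.15), so both subunits were lower here. Itgam was at -0.42 ± 0.09, C3 at -0.24 ± 0.06 and Laptm5 at -0.17 ± 0.05. Under normexp the value of Ccl2 was 0.23 and the lowest value of Mrc1 over the alternatives was 0.13.

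**Figure D4:**
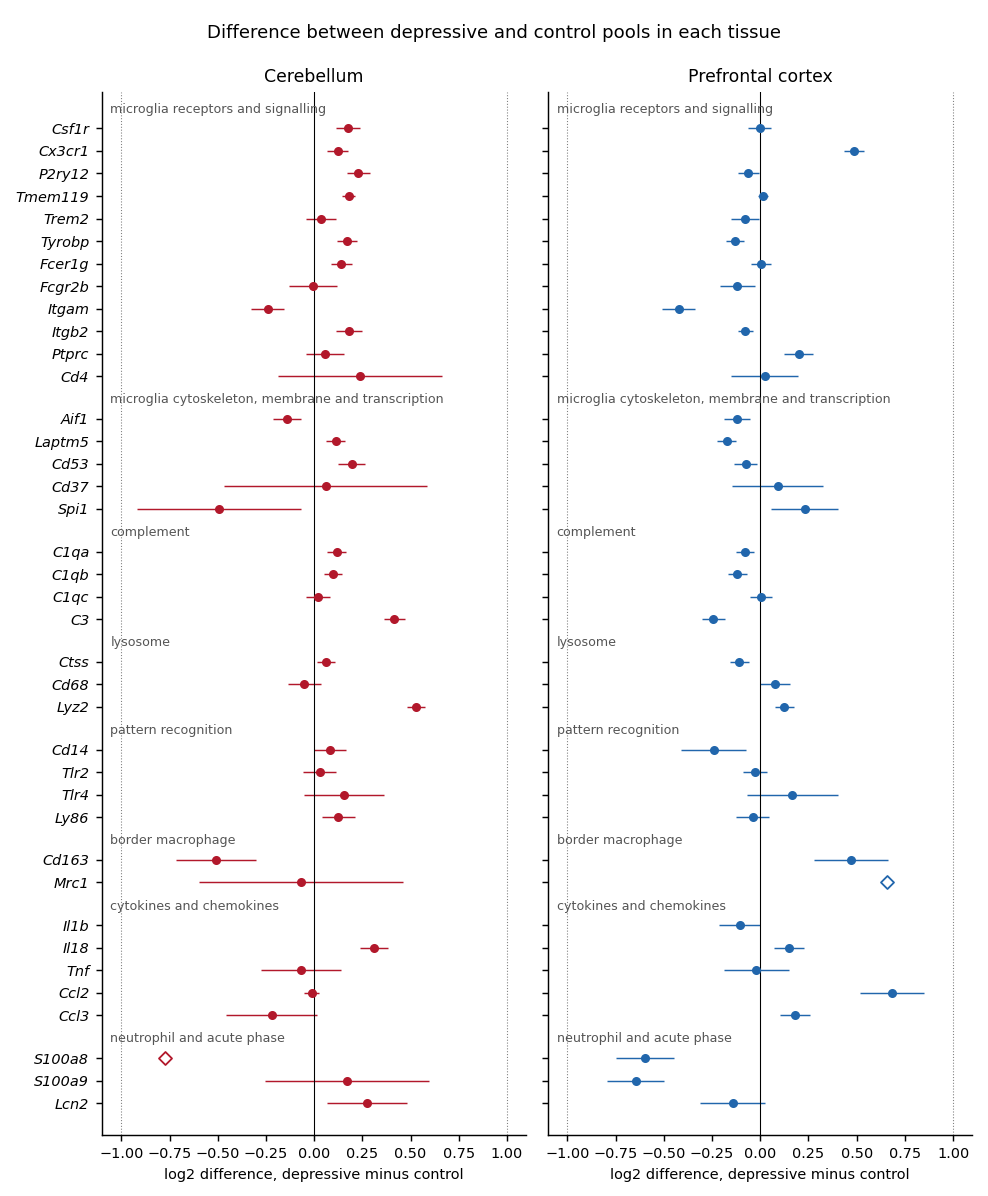
The log2 difference, depressive minus control, of each gene in cerebellum (left) and prefrontal cortex (right), by role, with bars of 1 SE between spots, open diamonds for bounds and dotted lines at 2-fold. All points lie inside the dotted lines, and the microglia receptors lie mostly right of 0 in cerebellum and around 0 in prefrontal cortex.

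The state differences of the genes did not run together in the 2 tissues. Over the 35 genes measured everywhere they correlated at r = -0.26 (Spearman -0.17), beside 0.20 (0.18) over 11618 genes, as a description across genes of the same arrays. Of 37 genes with a value in both, 22 had opposite signs, 16 of them higher in depressive cerebellum and lower in depressive prefrontal cortex, and 6 the reverse. Over all genes 42.6% had opposite signs and 17.5% were higher in depressive cerebellum and lower in depressive prefrontal cortex. In Tyrobp, Itgb2, Laptm5, C1qb, C3 and Cd163, 6 genes, the signs were opposite and each difference was over 2 SE between spots, where 1.44% of all genes met this condition, which was set with results known. In the depressive pool of both tissues 5 genes were lower, Itgam among them, and 10 were higher, among them Il18, Tlr4 and Lyz2. Over 12103 genes the order was the reverse, with 4273 lower in both and 2680 (22.1%) higher in both. For Tlr4 the differences, 0.15 ± 0.21 in cerebellum and 0.17 ± 0.24 in prefrontal cortex, were within the SE between spots, and its prefrontal cortex spots gave -0.17 and 0.51. The limma fit of state over both tissues called 0 of the 35 genes and 0 of 11618 (0%), with 3 and 904 at an unadjusted p under 0.05. Those 3 were Itgam, Il18 and Tlr4 (adjusted p = 0.641 for each by limma). The residual of this fit is the gap between the state differences of the 2 tissues, so a small p favours genes whose differences are alike. That these genes had the same direction in both tissues is thus no separate observation.

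Markers of other cells had these values by state, none of them called by the limma fit of state in the leading setting. Under normexp that fit called 4 red cell markers and 1 choroid plexus marker higher in the depressive pools. The sum of 7 red cell markers was 12.3 in depressive against 2.80 in control cerebellum and 19.6 in depressive against 5.07 in control prefrontal cortex, in multiples of the 75th percentile, although blood had been flushed out. Haemoglobin Hbb was 7.52-fold higher in depressive cerebellum and 5.47-fold higher in depressive prefrontal cortex. All 10 meningeal fibroblast markers were higher in depressive than in control prefrontal cortex (median 0.75), where Ccl2, Mrc1 and Cd163 were higher too, and 7 of 10 were higher in depressive cerebellum (median 0.12). Of the choroid plexus markers 7 of 8 were higher in depressive cerebellum (median 0.65), where Lyz2 and C3 were higher too, and 4 of 6 measured were lower in depressive prefrontal cortex (median -1.13). The sum of the choroid plexus markers was 172 in depressive against 176 in control cerebellum, so it did not rise. In prefrontal cortex it was 2.01 in depressive against 8.36 in control. All 8 oligodendrocyte markers were higher in depressive prefrontal cortex (median 0.34) and 4 of 8 in depressive cerebellum. Of 12 listed neutrophil markers 11 were on the array, and Elane, Ltf, Cxcr2 and Mmp8 were not well above background on any array. Their summed level was 0.12 in depressive and 0.12 in control cerebellum and 0.20 in depressive and 0.21 in control prefrontal cortex. Of the lymphocyte markers, Cd3e, Cd2 and Cd79b were not well above background on any array. The part of these cells in the state differences was not tested.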

How the data were processed

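Expression was measured on 1-colour Agilent arrays, 1 per group. Per the file headers, Agilent Feature Extraction 10.7.1.1 made a background-subtracted intensity and flags per spot. The design names build rn4, so coordinates printed here come from GRCr8 alone. The value table deposited by the authors holds linear intensity on an unstated scale, and served to assign scanner files to samples, which was decided once both had been compared, and as an alternative. Samples were grouped by title. For both depressive samples the title and the description name different tissues, and the title was followed.

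Control and outlier spots were left out, log2 intensity was averaged per probe, and the log2 of the array's 75th percentile over gene spots (4369.5, 4020, 3278 and 3116 for depressive and control cerebellum and depressive and control prefrontal cortex) was subtracted. The percentile was first taken over probe means and then changed. Of 30367 probes 18347 were named through RefSeq accessions, giving 15437 genes, of which 2666 have several probes, and the brightest was used (7 of the 38 genes have several). A probe with 50% of its spots flagged counted as well above background. A bound sets the other array at its own signal or, if higher, at the lowest signal well above background. For Mrc1, Il1b and S100a8 the own signal was the higher. Their bounds are thus point values near background and not limits. Genes of both arrays below background had no fold. No probe of the 38 genes was saturated. The number of arrays limits the precision.

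The members and lists were chosen with earlier results of these data known, as were the summaries at 1.5-fold, the condition of 2 SE in the closing section and the window of 2 rows and columns around a spot. With 1 pool per group, p-values rest on the tissue-by-state difference and hold no spread between replicate pools. Named with values on all arrays were genes at 1.5-fold or more between states, at 2-fold or more between tissues in both states, and at least 1 other of each role, and up to 4 genes of each other list with the largest difference. Tissue and state were fitted with limma 3.58.1 in R 4.3.3 (lmFit, eBayes, Benjamini-Hochberg over all genes), checked on simulated data. The normexp alternative (offset 50) used median signals, since the files hold no mean signal column, and was followed by quantile normalization. Other alternatives were quantile normalization, median scaling, the mean over probes, a filter for genes above background everywhere, the value table, files as linked and, added after seeing the data, the percentile over probe means. Python 3.11.15, numpy 2.4.6 and pandas 2.3.3 were used.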

Additional observations from a re-analysis of the deposited data

Results flagged for a closer look

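Of the 38 genes, 6 differed between depressive and control pools in opposite directions in the 2 tissues by more than 2 SE between spots in each, and these differences between tissues were not tested. Over all genes 1.44% met the same condition. The SE holds no spread between pools. C3 was at 0.416 in cerebellum and -0.243 in prefrontal cortex, depressive minus control on the log2 scale, a gap of 0.66. Cd163 ran the reverse way, at -0.507 in cerebellum and 0.471 in prefrontal cortex, a gap of -0.979. Tyrobp was at 0.171 and -0.132 (gap 0.303), Laptm5 at 0.112 and -0.175 (gap 0.286), Itgb2 at 0.183 and -0.0781 (gap 0.261) and C1qb at 0.098 and -0.119 (gap 0.217), each with cerebellum first. All 6 kept their sign in both tissues under the 7 alternatives other than files as linked. On the depressive cerebellum array 2 of the 10 spots of Itgb2 lay in the patches described with the results.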

How the results depend on the processing

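Of 10 results, the counts at 2-fold, medians and calls given in the report, every one kept its direction and stayed within 1.5 times (counts) or the spread between spots (medians) under median scaling, the mean over probes, a filter for genes above background everywhere, the value table and the percentile over probe means. With normexp 7 of 10 did: the median tissue difference was -0.5012 in depressive and -0.664 in control rats, and 13 genes were at 2-fold in control rats. With quantile normalization 9 did, the median tissue difference in depressive rats being -0.732. Normexp and quantile moved the median of all genes in that comparison to 0.04 and 0.06, from -0.06. With files as linked, 21 genes were at 2-fold between states in cerebellum (median 0.9843) and 14 in prefrontal cortex (median 0.8478, reversed), 0 and 0 between tissues (medians 0.03354, reversed, in depressive and -0.09804 in control rats), and limma called 0 genes by tissue and 30 by state, since the exchanged files swap tissue for state. Otherwise limma called 29 to 31 genes by tissue and 0 by state. Over all genes limma called 10 by state under normexp, 4 red cell markers and 1 choroid plexus marker among them, and 0 in the other 6 and the leading setting. In single genes, the sign changed in some alternative for 7 in cerebellum and 5 in prefrontal cortex between states (Csf1r and Aif1 in cerebellum among them), for 0 between tissues in depressive rats and for Cd68 and Lcn2 in control rats. The causes were not tested. No paired analysis was possible because each group has 1 array and no replicate numbers, and leaving out an array leaves no residual degree of freedom. Signals near background, as of Mrc1, S100a8, Il1b, Cd37 and Spi1, limit what these arrays show.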
